A study of Homo sapiens with 4 samples.

Results

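The let-7 guide strands are 9 mature human microRNAs, the 5p arms of let-7a, let-7b, let-7c, let-7d, let-7e, let-7f, let-7g and let-7i, together with miR-98-5p. They were chosen by name from the 2656 mature microRNAs listed in the deposited count table. All 9 had reads in all 4 libraries. The cells were RD, an established rhabdomyosarcoma line of the embryonal type, which resembles immature skeletal muscle. Small RNA was sequenced from the lysate before capture (input) and after 3 native captures on biotinylated probes. Both the EVEN set and the ODD set of probes were directed at exon 2 of HIPK3, the exon that makes up the circular RNA circHIPK3, and the third set, LacZ, at a bacterial mRNA as the control. None of the cells had received a treatment, and each group was 1 library from 1 biological replicate. The question was which microRNAs came down with circHIPK3.

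The let-7 family is among the most conserved microRNA families of animals. Its hairpins are cut by Drosha and Dicer, LIN28 blocks this maturation in stem and many tumour cells, and the guide strand then directs Argonaute to messages that pair with its seed, the stretch of bases 2 to 8. Messages of RAS genes, HMGA2 and LIN28 itself are known targets, and the family accumulates as tissues, skeletal muscle included, differentiate. A circular RNA with many seed matches can hold a microRNA and its Argonaute, which is why small RNAs are counted after a pull-down.

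The mature sequences of all 9 members were matched by name in RefSeq (GRCh38.p14). They are shown because the members differ by few bases, so that the identity of a read rests on those bases, and because the pull-downs separated strands that share 1 seed. Each is written 5′ to 3′ with the seed in capitals.
hsa-let-7a-5p: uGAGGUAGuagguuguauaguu
hsa-let-7b-5p: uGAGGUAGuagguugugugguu
hsa-let-7c-5p: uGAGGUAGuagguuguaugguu
hsa-let-7d-5p: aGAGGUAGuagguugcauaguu
hsa-let-7e-5p: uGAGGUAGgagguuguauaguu
hsa-let-7f-5p: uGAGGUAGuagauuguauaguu
hsa-let-7g-5p: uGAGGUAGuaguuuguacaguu
hsa-let-7i-5p: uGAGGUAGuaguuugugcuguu
hsa-miR-98-5p: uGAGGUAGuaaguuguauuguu

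All 9 are 22 nt long and carry the same seed, so every difference lies outside bases 2 to 8. Counted from 1 at the 5′ end with the base of let-7a first, let-7b differs from let-7a by A17G and A19G, let-7c by A19G, let-7e by U9G and let-7f by G12A. In let-7d the differences are U1A and U16C, and in let-7g they are G12U and U18C. The strand of let-7i differs by G12U, A17G, U18C and A19U, and that of miR-98 by G11A and A19U. Among the 36 pairs of members the differences ran from 1 to 6 bases, and 4 pairs (let-7a with let-7c, let-7e and let-7f, and let-7b with let-7c) were 1 base apart. The sources used here do not give how reads that match several members were assigned, so values of single members are less certain than the family's sum.

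The 9 strands come from 12 hairpins at 8 places in the genome (GRCh38). A cluster on the plus strand of chromosome 9 holds MIRLET7A1 (chr9:94175957-94176036), MIRLET7F1 (chr9:94176347-94176433) and MIRLET7D (chr9:94178834-94178920) in introns of the lincRNA AL158152.2. On the plus strand of chromosome 22, MIRLET7A3 (chr22:46112749-46112822) and MIRLET7B (chr22:46113686-46113768) lie 863 nt apart in exons of MIRLET7BHG. On the minus strand of chromosome X, MIR98 (chrX:53556223-53556341) and MIRLET7F2 (chrX:53557192-53557274) lie 850 nt apart in an intron of HUWE1. The others are single let-7 hairpins, all in introns. MIRLET7A2 (chr11:122146522-122146593, minus strand) lies in MIR100HG and MIRLET7C (chr21:16539828-16539911, plus strand) in MIR99AHG. MIRLET7E (chr19:51692786-51692864, plus strand) lies in SPACA6, and MIRLET7G (chr3:52268278-52268361, minus strand) in WDR82. MIRLET7I (chr12:62603686-62603769, plus strand) lies in the lincRNA AC048341.1.

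The libraries held 98950 microRNA reads for EVEN, 425395 for LacZ, 426450 for ODD and 2987858 for the input, so EVEN had the widest counting error. The 95% intervals below are for counting error only, and reads are not known to be independent molecules. The muscle microRNAs miR-1-3p, miR-133a-3p, miR-133b and miR-206 were detected in every library and summed to 6.21% of reads in the input, 6.70% in LacZ, 10.4% in EVEN and 3.50% in ODD. miR-206 carried that sum, at 9.53% in EVEN, whereas miR-1-3p made up 1.40% in the input, 0.482% in LacZ, 0.163% in EVEN and 0.140% in ODD. The neural pair miR-9-5p and miR-124-3p summed to 1.01%, 0.806%, 0.211% and 0.137% in the same order. miR-9-5p carried this sum, since miR-124-3p had 1 read in the input and none in the other libraries. The 3 epithelial markers summed to between 0.00971% and 0.0856%, and members of that list went opposite ways. miR-205-5p had 4 reads in the input, 208 in LacZ, 20 in EVEN and 355 in ODD, while miR-141-3p had 196, 17, 4 and 0 and miR-200c-3p 90, 16, 3 and 10. The 3 blood markers summed to between 0.00211% and 0.00808%, with miR-451a at 0 reads throughout. The liver marker miR-122-5p had 11 input reads, 6 LacZ reads and none with EVEN or ODD, where a count of 0 allows up to 30.3 and 7.03 CPM (counts scaled to the same sum in each library). The part of these shifts in the let-7 values was not tested.

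Reads of the 9 members made up 24.0% of the input library, 32.0% of the LacZ library, 37.7% with EVEN and 50.9% with ODD. The order was thus input, LacZ, EVEN, ODD, and in the ODD library most microRNA reads were let-7 reads. In reads, the sums were 716663, 136045, 37288 and 217257. As shares of 1 library's reads, these values say nothing of absolute amounts, and a larger share of one microRNA lowers the shares of the others.

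The most abundant member of the input was let-7a, with 220257 reads or 7.37% of the library, first of all microRNAs. It held 9.10% of LacZ (38729 reads), 9.0% of EVEN (8906) and 12.9% of ODD (55202). Its level was therefore close in LacZ and EVEN, and higher with ODD. let-7f followed in the input with 7.09% (211848 reads), and had 8.92% in LacZ (37941), 4.77% in EVEN (4722) and 9.58% in ODD (40874). For let-7i the shares were 3.30% in the input (98599 reads), 4.49% in LacZ (19086), 2.54% in EVEN (2515) and 5.60% in ODD (23901). Both let-7f and let-7i had their lowest share in the EVEN library.

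The member that led both circHIPK3 pull-downs was let-7b. It took 2.98% in the input (89185 reads), 5.89% in LacZ (25067), 14.2% in EVEN (14024) and 17.1% in ODD (72979). It ranked 9 among the microRNAs of the input, 4 in LacZ, and first in EVEN and in ODD. The most abundant microRNA outside the family was miR-93-5p in the input (5.02%, rank 3), miR-206 in LacZ (5.90%, rank 3), miR-18a-5p in EVEN (10.0%, rank 2) and miR-16-5p in ODD (15.9%, rank 2). Its closest relative let-7c, 1 base away, was far rarer, at 0.402% in the input (12002 reads), 0.661% in LacZ (2813), 1.14% in EVEN (1132) and 1.38% in ODD (5870). Both let-7b and let-7c thus had higher shares in each circHIPK3 pull-down than in LacZ, and a higher share in LacZ than in the input.

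**Figure D1:**
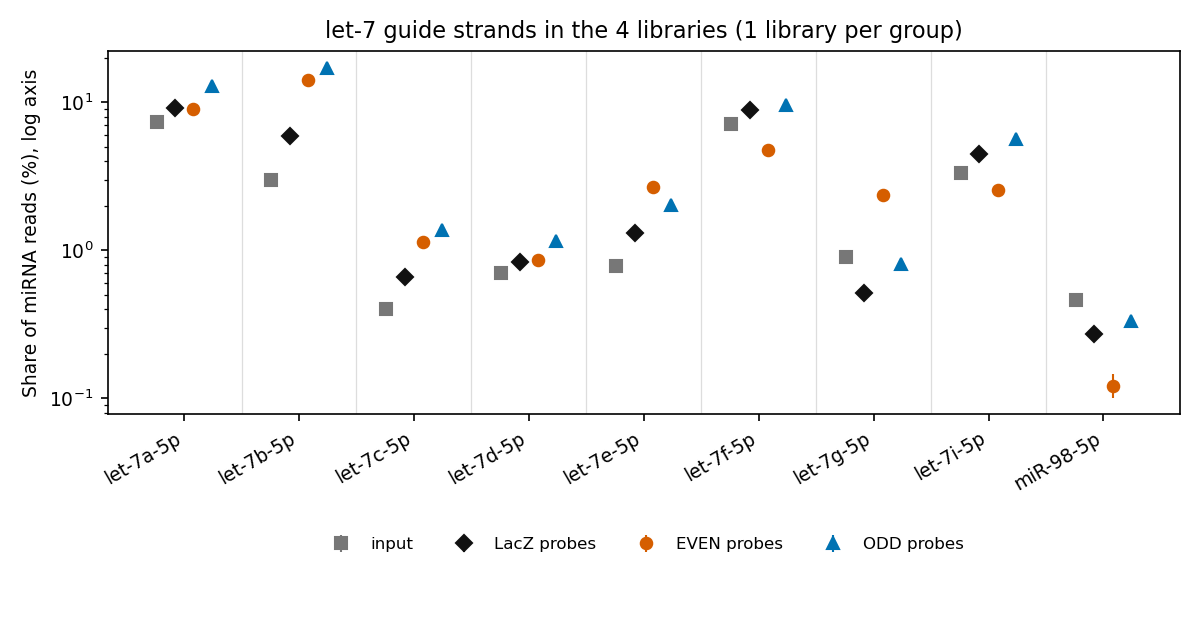
Share of each let-7 guide strand in the microRNA reads of each library (percent, log axis), 1 point per library with 95% exact binomial intervals for counting error. let-7b lies at 2.98% in the input and 17.1% in ODD, while miR-98-5p is lowest in EVEN at 0.121%.

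The 4 remaining members were less abundant. let-7e made up 0.781% of input reads (23332), 1.30% with LacZ (5522), 2.69% with EVEN (2665) and 2.03% with ODD (8667). let-7d held 0.698% (20857), 0.831% (3536), 0.862% (853) and 1.15% (4895) in the same libraries. Thus let-7e was highest in EVEN, and let-7d was lowest in the input and highest in ODD. let-7g made up 0.895% of input reads (26730), 0.514% with LacZ (2188), 2.38% with EVEN (2351) and 0.807% with ODD (3443). miR-98-5p, from the same intron as 1 of the let-7f hairpins, held 0.464% (13853), 0.273% (1163), 0.121% (120) and 0.334% (1426). let-7g and miR-98-5p were the 2 members with a lower share in LacZ than in the input, and in EVEN they parted, let-7g at its highest share and miR-98-5p at its lowest.

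Within the input the members ranked let-7a, let-7f, let-7i, let-7b, let-7g, let-7e, let-7d, miR-98, let-7c from high to low. The LacZ order was let-7a, let-7f, let-7b, let-7i, let-7e, let-7d, let-7c, let-7g, miR-98. EVEN gave let-7b, let-7a, let-7f, let-7e, let-7i, let-7g, let-7c, let-7d, miR-98, and ODD gave let-7b, let-7a, let-7f, let-7i, let-7e, let-7c, let-7d, let-7g, miR-98. Every neighbouring pair in these orders differed beyond counting error. The ratios nearest 1 were let-7a over let-7f, at 1.02 in LacZ (95% exact conditional interval 1.01 to 1.04) and 1.04 in the input (1.03 to 1.05), and let-7e over let-7i in EVEN, at 1.06 (1.003 to 1.12). With 1 library per group, the spread between replicates is unknown, so no neighbours can be told apart beyond it.

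Against LacZ, the EVEN pull-down split the family. let-7g was 4.62-fold higher (95% interval 4.36 to 4.90), let-7b 2.41-fold higher (2.36 to 2.46), let-7e 2.07-fold higher (1.98 to 2.17) and let-7c 1.73-fold higher (1.61 to 1.85). let-7a, at 0.989-fold (0.966 to 1.01), and let-7d, at 1.04-fold (0.961 to 1.12), did not differ beyond counting error with library totals. With the 5 other scalings the log2 ratio was 0.11 to 1.04 for let-7a and 0.18 to 1.11 for let-7d. let-7f was 1.87-fold lower (1.81 to 1.93), let-7i 1.77-fold lower (1.69 to 1.84) and miR-98-5p 2.25-fold lower (1.87 to 2.74), but let-7f and let-7i turned above 0, to log2 ratios of 0.16 and 0.24, when centred on the median of all tested. From let-7g to miR-98-5p the members spanned a 10.4-fold range, although they share a seed.

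At a 2-fold threshold 3 of 9 members were higher in EVEN than in LacZ and 1 of 9 was lower, and 9.69% of the 289 microRNAs tested were higher and 51.2% lower. A microRNA was tested where 1 or both libraries compared held 20 reads or more of it, which all 9 members did in every comparison. The log2 ratio had a median of 0.05 over the members and of -1.06 over all 289, and 8 members stood above the latter. From the highest ratio down, let-7g stood at place 12, let-7b at 23 and let-7e at 28. The summed family was 1.18-fold higher (1.16 to 1.19), a log2 ratio of 0.24 that other scalings put at 0.36 to 1.30, and without let-7b it held 23.5% of EVEN against 26.1% of LacZ. With library totals its direction thus rested on 1 member. With median-of-ratios size factors in place of library totals, 14.9% of all tested were higher and 37.0% lower, and 4 members were higher and none lower.

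In the ODD pull-down all 9 members had a higher share than in LacZ, where 20.7% of the 300 microRNAs tested did. let-7b was 2.90-fold higher (2.86 to 2.95) and let-7c 2.08-fold higher (1.99 to 2.18). let-7e and let-7g were each 1.57-fold higher (1.51 to 1.62 and 1.49 to 1.66), let-7a 1.42-fold (1.40 to 1.44) and let-7d 1.38-fold (1.32 to 1.44). let-7i was 1.25-fold higher (1.23 to 1.27), miR-98-5p 1.22-fold (1.13 to 1.32) and let-7f 1.07-fold (1.06 to 1.09). The members spanned a 2.70-fold range here, narrower than with EVEN, and the summed family was 1.59-fold higher (1.58 to 1.60). On the log2 scale this is 0.67, and the 5 other scalings gave 1.14 to 2.46, far outside the counting interval.

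At 2-fold, 2 of 9 members were higher in ODD than in LacZ, beside 13% of all tested, and none was lower, beside 70.3%. The median log2 ratio was 0.51 over the members and -1.79 over all 300. This count depends on the scale chosen for the library. With trimmed-mean (TMM) factors, 22.0% of all tested were higher and 34.3% lower, and all 9 members were at least 2-fold higher. With totals that leave out the 9 members, 4 of them were, beside 15.7% of all tested higher and 59.3% lower.

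**Figure D2:**
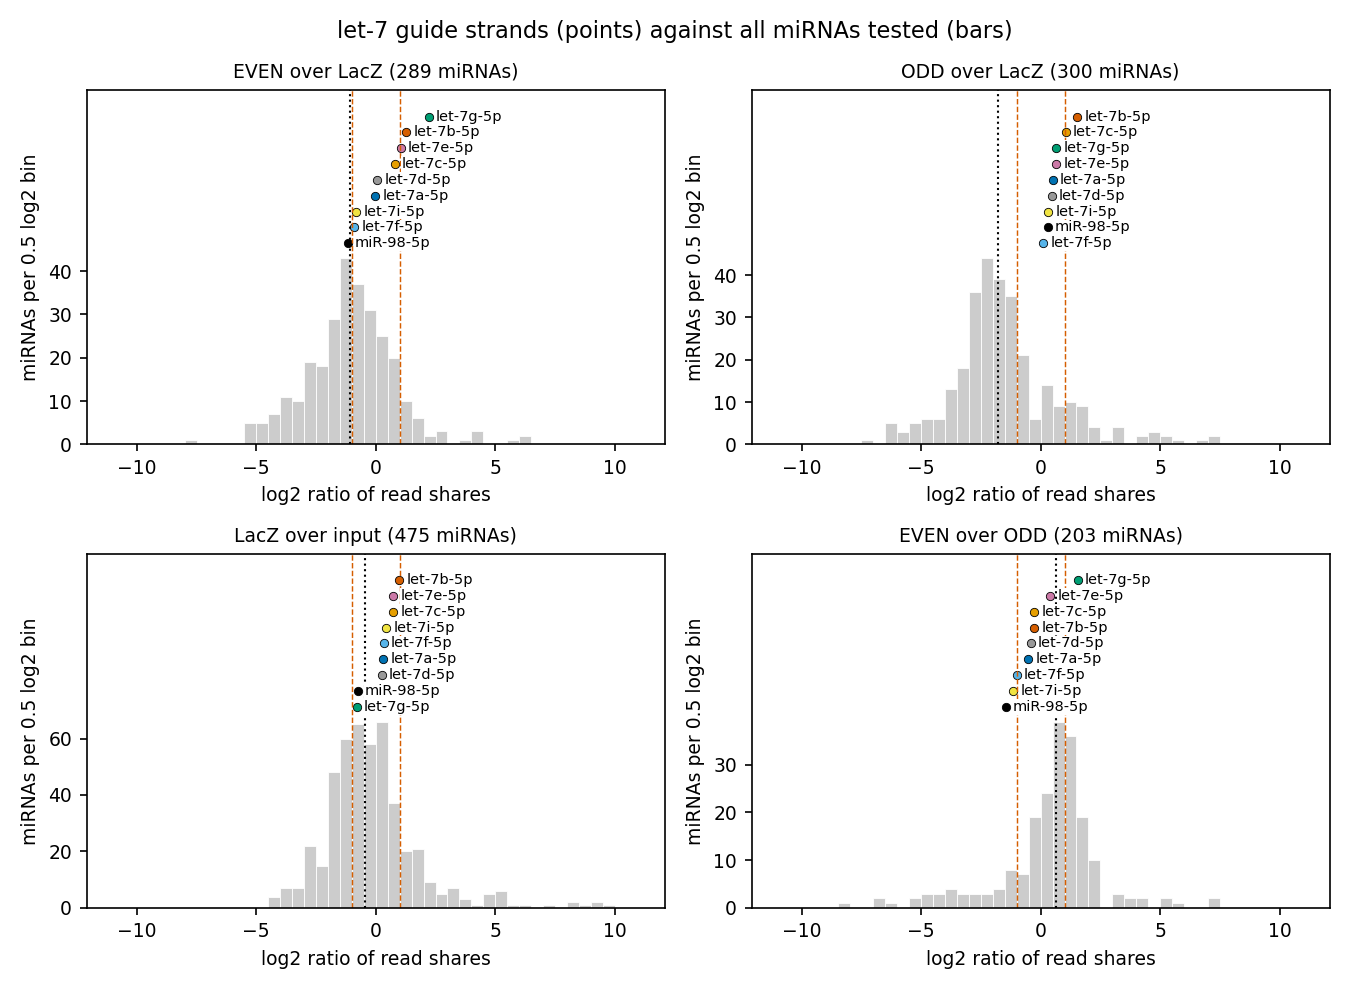
Log2 ratios of read shares in 4 comparisons, with bars for all microRNAs tested (count per bin of the log2 ratio) and points for the 9 let-7 guide strands, placed by height only to separate them. Dotted lines mark the median of all tested and dashed lines 2-fold; in ODD over LacZ all 9 points lie right of 0, while the median of all tested is -1.79.

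Both comparisons share the LacZ library, so their ratios are not independent of each other. At least 2-fold higher with both probe sets were 3.17% of the 284 microRNAs tested in both, and 1 of the 9 members, let-7b. At least 2-fold lower with both were 46.5%, and none of the members. With TMM factors let-7c, let-7e and let-7g joined let-7b, beside 5.99% of all 284 higher and 30.3% lower. With ratios centred on the median of all tested let-7a and let-7d did so too, beside 12.3% higher and 19.7% lower. When EVEN and ODD were fitted as 2 samples against LacZ, although they are not replicates of 1 probe set, edgeR's quasi-likelihood test called none of the 305 microRNAs (0%) at an adjusted p of 0.05. At an unadjusted p under 0.05 it had 31, none of them a member. DESeq2 called 3 of the 305 (0.984%), none of them a member, and 37 at an unadjusted p under 0.05, 2 of them members (let-7b and let-7g). The adjusted p of the members ran from 0.465 to 0.804 with edgeR and from 0.286 to 0.832 with DESeq2.

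The probe sets were also set against each other. let-7g had 2351 reads in EVEN and 3443 in the deeper ODD library, a 2.94-fold higher share in EVEN (2.79 to 3.10). miR-98-5p was 2.76-fold lower in EVEN than in ODD (2.29 to 3.35), with log2 ratios of -1.01 for let-7f and -1.14 for let-7i. At 2-fold, 1 member was higher in EVEN, beside 37.9% of the 203 microRNAs tested, and 3 were lower, beside 18.2%. The median log2 ratio was -0.41 over the members and 0.64 over all 203. Under TMM factors 9.85% of all tested were higher and 31.5% lower, with no member higher and 7 members lower. let-7b, let-7c, let-7a and let-7d lay between -0.27 and -0.52, and let-7e at 0.41, which turned to -0.62 with TMM factors, -0.64 with size factors and -0.23 when centred. The 2 probe sets target the same exon, so these values show how far pull-downs of 1 target differed, with differences of probe set, depth and library that cannot be told apart.

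The control pull-down itself differed from the input. let-7b had a 1.97-fold higher share in LacZ than in the input (1.95 to 2.002), with log2 ratios of 0.73 for let-7e and 0.72 for let-7c. let-7a, let-7d, let-7f and let-7i lay between 0.25 and 0.44, whereas let-7g was 1.74-fold lower and miR-98-5p 1.70-fold lower. None of the members passed 2-fold in either direction, beside 18.1% of the 475 microRNAs tested higher and 34.3% lower. With TMM factors 13.3% were higher and 51.8% lower, 2 members passed 2-fold lower, and let-7a, let-7d, let-7f and let-7i moved below 0.

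Set against the input, which holds no selection by probes, let-7b was 4.75-fold higher in EVEN and 5.73-fold higher in ODD. The log2 ratios of let-7e were 1.79 and 1.38 and those of let-7c 1.51 and 1.78. let-7g was 2.66-fold higher in EVEN, whereas its log2 ratio in ODD was -0.15 with library totals and from 0.48 to 2.05 with the 5 other scalings. In EVEN 4 members were at least 2-fold higher and 1, miR-98-5p, was lower, beside 18.3% and 52.2% of the 464 microRNAs tested. In ODD 3 were higher and none lower, beside 13% and 68.6% of 468. The summed family's log2 ratio to the input was 1.09 in ODD (1.72 to 3.28 with the other scalings) and 0.65 in EVEN (0.31 to 1.72). Leaving the 10 most abundant microRNAs out of each total gave 24.4% higher and 39.9% lower for EVEN with 4 and 1 members, and size factors gave 23.1% and 50.6% for ODD with 8 and 0 members.

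**Figure D3:**
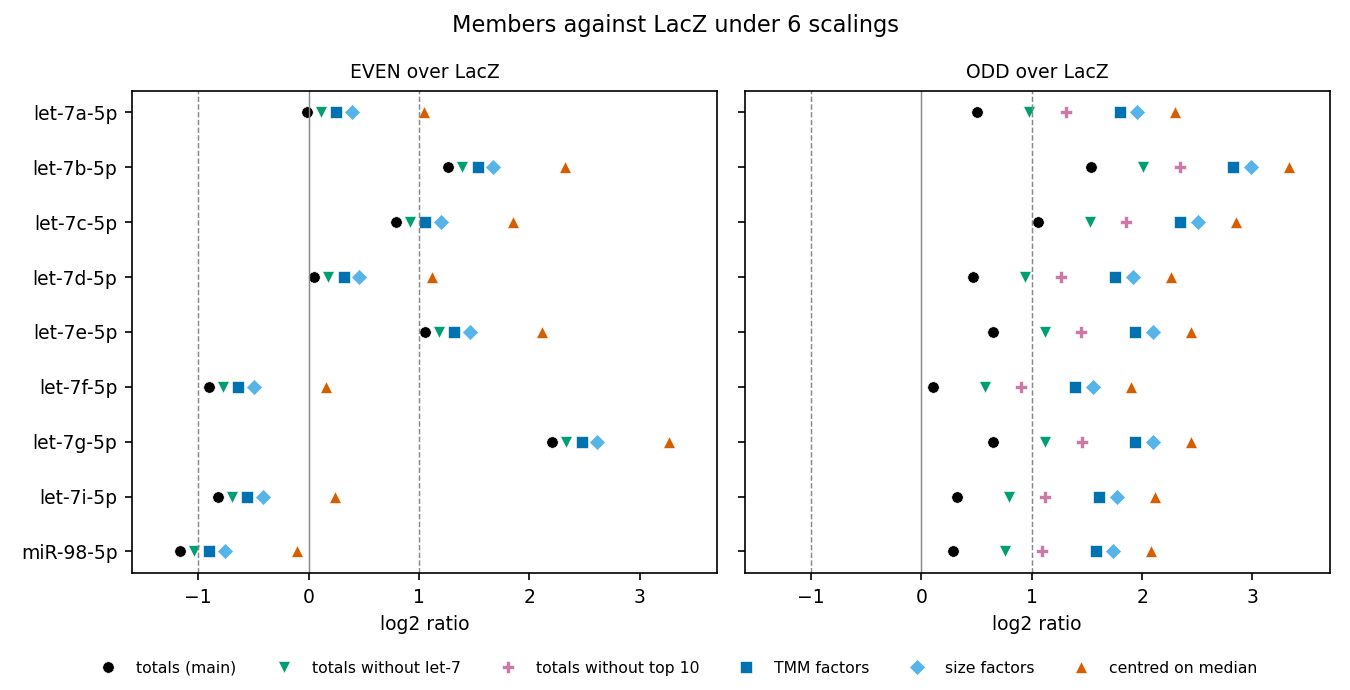
Log2 ratio of each member in EVEN over LacZ and ODD over LacZ under 6 ways of scaling the libraries, 1 marker per way; in EVEN, the markers for totals without the 10 most abundant microRNAs lie under those for size factors. The spacing between members is the same under every way, while the whole family moves along the axis, and let-7a, let-7f and let-7i cross 0 in EVEN.

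Ratios between members within a library do not depend on how that library is scaled. For each read of let-7a, there were 0.405 reads of let-7b in the input (95% exact conditional interval 0.402 to 0.408), 0.647 in LacZ (0.637 to 0.658), 1.57 in EVEN (1.53 to 1.62) and 1.32 in ODD (1.31 to 1.34). Both circHIPK3 libraries held more let-7b than let-7a, and the input and LacZ held less. let-7c moved alike, from 0.0545 and 0.0726 reads per let-7a read in the input and LacZ to 0.127 and 0.106 in EVEN and ODD. let-7d stayed near 1 level, at 0.0947, 0.0913, 0.0958 and 0.0887 in the input, LacZ, EVEN and ODD. Relative to let-7a, let-7d was 1.05-fold of its LacZ level in EVEN (95% Wald interval of the odds ratio 0.970 to 1.13) and 0.971-fold in ODD (0.928 to 1.02).

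Between the probe sets, the other ratios to let-7a differed more than those of let-7b, let-7c and let-7d. The ratios of let-7b, let-7c and let-7d were also higher in EVEN than in ODD, each with a Wald interval that excludes 1. let-7g went from 0.121 in the input and 0.0565 in LacZ to 0.264 in EVEN, but to 0.0624 in ODD. let-7e stood at 0.299 in EVEN and 0.157 in ODD, beside 0.143 in LacZ. let-7f was nearly level with let-7a in the input (0.962) and LacZ (0.980), and below it with EVEN (0.530) and ODD (0.740). let-7i held 0.493 in LacZ, 0.282 in EVEN and 0.433 in ODD, and miR-98-5p 0.0300, 0.0135 and 0.0258. Per let-7a read, EVEN thus held more let-7g and let-7e than ODD (4.23-fold and 1.91-fold) and less miR-98-5p, let-7i and let-7f (1.92-fold, 1.53-fold and 1.40-fold), each with a Wald interval that excludes 1. Relative to let-7a the ratios to LacZ were 2.43 (EVEN) and 2.04 (ODD) for let-7b, 1.75 and 1.46 for let-7c, 2.10 and 1.10 for let-7e, and 4.67 and 1.10 for let-7g. They were 0.541 and 0.756 for let-7f, 0.573 and 0.879 for let-7i, and 0.449 and 0.860 for miR-98-5p, again against the same LacZ library.

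The make-up of the family differed between the libraries. let-7a, let-7b and let-7f together held 72.7% of let-7 reads in the input, 74.8% in LacZ, 74.2% in EVEN and 77.8% in ODD, a nearly constant share. Within it, let-7b went from 12.4% and 18.4% in the input and LacZ to 37.6% and 33.6% in EVEN and ODD, and let-7f from 29.6% and 27.9% to 12.7% and 18.8%. let-7a moved less, from 30.7% and 28.5% to 23.9% and 25.4%. Summed reads of let-7b and let-7c per read of the other 7 members were 0.164 in the input, 0.258 in LacZ, 0.685 in EVEN and 0.570 in ODD.

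**Figure D4:**
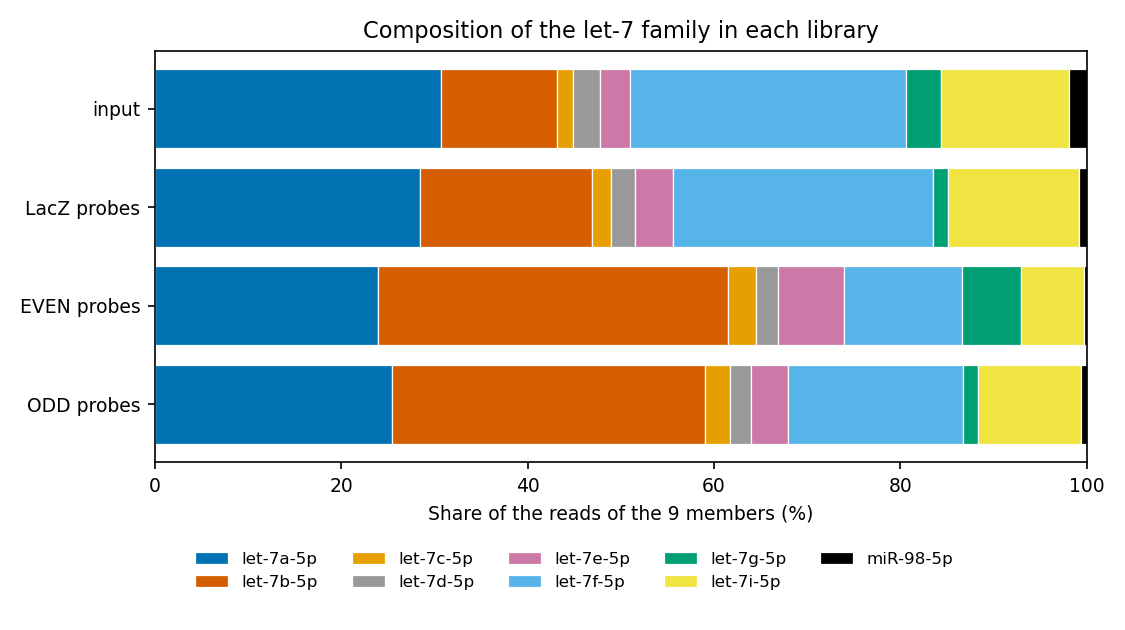
Share of each member in the let-7 guide reads of each library (percent, stacked to 100%). The let-7b segment takes 12.4% in the input, 18.4% in LacZ, 37.6% in EVEN and 33.6% in ODD, and the let-7f segment is narrowest in EVEN at 12.7%.

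The G and C counts of the printed sequences can be set beside these values. Of the 22 bases, G and C numbered 10 in let-7b, 9 in let-7c, let-7d, let-7e and let-7i, 8 in let-7a and let-7g, and 7 in let-7f and miR-98. let-7b, with the most, was at least 2-fold higher than LacZ with both probe sets, and let-7f and miR-98, with the fewest, had the 2 lowest ratios with each set. Next lowest with each set was let-7i, whose counting interval overlapped that of let-7f in EVEN and that of miR-98 in ODD. let-7i, with 9, was lower in EVEN and let-7g, with 8, was highest there, so the order was not that of the G and C counts. These are 9 strands that share most bases, and no test was made.

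Exon 2 of HIPK3 (chr11:33286413-33287511, plus strand, GRCh38) is 1099 nt long and holds coding sequence with the start codon. The complement of the let-7 seed was searched on the transcribed strand, with the exon joined end to end as a circle. CTACCTC, which pairs with bases 2 to 8, had 0 matches, TACCTC, which pairs with bases 2 to 7 and lies within it, had 0, and CTACCTCA had 0. Of 55778 non-overlapping windows of the same length in protein-coding transcripts, 7.87% held CTACCTC, 19.4% TACCTC and 2.79% CTACCTCA. This says only that these letters are not in this window. Exon 2 is also part of linear HIPK3 mRNA, and capture of linear transcripts was not tested.

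Of other microRNAs with the let-7 seed in RefSeq, miR-4458 had 1 read in the input, 6 in LacZ and none in EVEN or ODD, and miR-4500 had none in any library. miR-202-3p, often placed in the family, also had 0 reads in all 4. The family's reads were thus nearly all from the 9 members.

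Some let-7 hairpins share a transcript with hairpins of the miR-99, miR-100 and miR-125 families, which carry other seeds. MIRLET7E lies 104 nt from MIR99B and 389 nt from MIR125A, and MIRLET7C lies 658 nt from MIR99A. With library totals, miR-99b-5p, miR-125a-5p and miR-99a-5p in the ODD library stood on the other side of LacZ from their let-7 partners. The log2 ratios were -1.33 for miR-99b-5p and -2.53 for miR-125a-5p beside 0.65 for let-7e, and -2.05 for miR-99a-5p beside 1.06 for let-7c. In EVEN they were 0.44 for miR-99b-5p, -1.14 for miR-125a-5p and -0.85 for miR-99a-5p, beside 1.05 for let-7e and 0.79 for let-7c. MIR100 and MIR125B1 lie with MIRLET7A2 in MIR100HG. In ODD over LacZ miR-125b-5p stood at -2.14 beside 0.51 for let-7a, which comes from 3 hairpins. miR-100-5p stood at 0.27, on the side of let-7a, but had only 11 reads in ODD and 9 in LacZ. Of all 300 tested in ODD against LacZ, 20.7% lay above 0. Other scalings shift all ratios of a comparison together, and the neighbours' ratios are given with library totals only. Of the 5 neighbours, 4 were tested in EVEN against LacZ and 4 in ODD against LacZ. None was 2-fold higher than LacZ, beside 9.69% of all tested in EVEN and 13% in ODD. At 2-fold, 2 were lower in EVEN, beside 51.2% of all tested, and all 4 tested in ODD, beside 70.3%. Their median log2 ratios were -0.99 in EVEN and -2.09 in ODD, against -1.06 and -1.79 over all tested.

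The passenger strands of the same hairpins summed to 0.182% of reads in the input, 0.272% in LacZ, 0.283% in EVEN and 0.0680% in ODD. Of the 4 tested in EVEN against LacZ, 1 was at least 2-fold higher and 1 lower, beside 9.69% and 51.2% of all 289 microRNAs tested. The higher was let-7e-3p (4 reads in LacZ and 21 in EVEN) and the lower let-7i-3p (432 and 0). let-7e-3p met the minimum number of reads only in EVEN, the shallower library, so its higher call followed from that minimum. In ODD against LacZ 3 of 3 were lower, beside 70.3% of all 300 microRNAs tested.

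The microRNAs nearest to the family in pattern were sought among 125 others with at least 20 reads in each of the 4 libraries, by the Euclidean distance of centred log2 shares over the 4 libraries. Nearest to the summed family were miR-324-3p (0.619), miR-574-3p (0.639) and miR-574-5p (0.657). For let-7a they were miR-574-3p (0.457), miR-324-3p (0.721) and miR-320b (0.802), and for let-7b miR-877-5p (0.516), then miR-3187-3p (0.654) and miR-409-3p (0.836). Nearest means only the smallest distance among the 125, and likeness was not tested. In ODD the centred log2 share was 0.46 for let-7a, 0.25 for miR-574-3p, 0.25 for miR-324-3p and -0.13 for miR-320b.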

How the data were processed

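Small RNA of 1 input and 3 pull-down libraries of RD cells was prepared with a QIAseq miRNA kit and sequenced single-end, per the labels' protocols. The authors deposited whole-number counts per mature microRNA. They also deposited CPM, which equal count over library total to within 1.46e-11 and served 1 alternative. The build is GRCh38 per the submitters' processing notes. Not given in the sources used here were the trimming, aligner, annotation, strand, treatment of multi-matching reads and use of molecular identifiers. Uncollapsed copies would make the counting intervals too narrow.

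Log2 ratios compare (count + 0.5) over library totals, for microRNAs with at least 20 reads in 1 of 2 libraries, called at 2-fold. Shares have exact binomial and folds exact conditional 95% intervals. A count of 0 is read as up to 3 counts. The samples were grouped by title, 1 library per group, so no comparison of 2 libraries has a test across replicates. Totals ran from 98950 to 2987858 reads. The 9 members, the named lists (same seed, hairpin neighbours, passenger strands, nearest in pattern) and the markers were chosen with earlier results of these data known. The named genes are these members and lists, and the top non-member of each library. Alternatives, with effects in the closing section, were other scalings, 5 added, CPM with 1 added, minimums of 1 and 100 reads, 4-fold, 2-fold with an interval that excludes 1, and fits with edgeR 4.0.16 and DESeq2 1.42.0. Those for calls with both probe sets were chosen after seeing the data. Hairpin hosts and exon 2 came from GENCODE on GRCh38, read from transcripts. Ratio steps and fits were tested on simulated data. Python 3.11.15, pandas 2.3.3, numpy 2.4.6, scipy 1.17.1, matplotlib 3.10.9 and R 4.3.3 were used.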

Additional observations from a re-analysis of the deposited data

Results flagged for a closer look

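The members let-7f-5p, let-7i-5p and miR-98-5p, had a lower share than LacZ with the EVEN probes and a higher share with the ODD probes, with counting intervals on opposite sides of 1. The log2 ratio of EVEN over ODD was -1.01 for let-7f-5p, -1.14 for let-7i-5p and -1.46 for miR-98-5p. With 1 library per probe set, this difference was not tested. Centred on the median of all tested, the EVEN ratios to LacZ of let-7f-5p and let-7i-5p turned to 0.16 and 0.24, whereas that of miR-98-5p was -0.11.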

How the results depend on the processing

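No paired analysis was possible because each group was 1 library. Counting error limits miR-98-5p in EVEN most, and the unknown spread between replicates limits every value. Minimums of 1 and 100 reads, 5 added, CPM with 1 added and the interval rule left the members' counts within 1.5 times. Scaling moved them by construction, since it shifts all members of a library together. Beside each count of members stands the share of all tested under the same setting. In the order TMM, size factors, totals without the top 10, totals without the members and centred on the median, members at least 2-fold higher numbered 9, 9, 8, 4 and 9 in ODD against LacZ (22.0%, 22.7%, 19.3%, 15.7% and 25.7%). In ODD against the input they numbered 7, 8, 7, 7 and 9 (18.8%, 23.1%, 21.8%, 18.4% and 33.3%), and with both probe sets 4, 4, 4, 3 and 6 (5.99%, 6.69%, 5.28%, 3.87% and 12.3%). The edgeR and DESeq2 fits, which set both probe sets as 2 samples beside 1 LacZ library, called 0 and 0 members by adjusted p, which is not a fold count and is not comparable with these. Centred counts were 6 higher in EVEN against LacZ (26.3%), 3 higher in LacZ against the input (24.4%), 0 higher (16.7%) and 5 lower (23.6%) in EVEN against ODD, and 0 lower in EVEN against the input (31.9%). In EVEN against LacZ 0 were lower with TMM (40.8%), size factors (37.0%), totals without the top 10 (37.0%) and centring (25.3%). In EVEN against ODD 0 were higher and 7 lower with TMM (9.85% and 31.5%) and with size factors (9.36% and 31.5%). In LacZ against the input 2 were lower with TMM (51.8%) and with size factors (40.8%), and 1 was higher with totals without the top 10 (21.3%) and without the members (20.6%). At 4-fold, 1 member was higher in EVEN against LacZ (4.15%), EVEN against the input (9.91%) and ODD against the input (8.97%). At 4-fold 0 members were higher in ODD against LacZ (6.67%), EVEN against ODD (10.8%) and both sets (0.352%), and 0 lower in EVEN against LacZ (26.3%), EVEN against ODD (12.3%) and EVEN against the input (33.0%). The summed family's log2 ratio, in the order above and then without let-7b, was 0.50, 0.64, 0.64, 0.36, 1.30 and -0.15 in EVEN against LacZ, and 1.96, 2.12, 1.47, 1.14, 2.46 and 0.38 in ODD against LacZ. It was -1.46, -1.48, -0.83, -0.78, -1.07 and -0.53 in EVEN against ODD, and -0.19, 0.13, 0.64, 0.58, 0.86 and 0.31 in LacZ against the input. It was 0.31, 0.78, 1.28, 0.94, 1.72 and 0.16 in EVEN against the input, and 1.77, 2.25, 2.11, 1.72, 3.28 and 0.69 in ODD against the input. Summed let-7b and let-7c per read of the other members, in place of let-7b per let-7a, gave 0.164, 0.258, 0.685 and 0.570 in the input, LacZ, EVEN and ODD.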
